A study of Bos taurus with 6 samples.

Results

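Metalloproteinases cut the proteins of the extracellular matrix and release growth factors, receptors and their ligands from the cell surface. The matrix metalloproteinases (MMP), the membrane-bound ADAM proteases and the secreted ADAMTS proteases share a zinc-dependent catalytic domain, while the ADAMTS-like proteins (ADAMTSL) hold the matrix-binding parts of an ADAMTS without the protease. The tissue inhibitors of metalloproteinases (TIMP) block these enzymes, and RECK is a membrane-anchored inhibitor of several MMP. In the ovary the granulosa cells (GC) lie against a basement membrane that is broken down when the follicle ovulates and becomes a corpus luteum, and this tissue is known for the use of these proteases and inhibitors.

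The members were found by gene symbol in the table of array signals. They are the numbered MMP, ADAM, ADAMTS (other than ADAMTS1) and ADAMTSL genes, the TIMP genes and RECK. This gave 69 of the 26773 rows of the table, with 66 distinct symbols. The rows are termed transcript clusters (the array's unit for a gene), although control rows are among the 26773. Shares of all transcript clusters are shares of all these rows. Of the 69 members, 21 transcript clusters measured MMP, 19 ADAM, 18 ADAMTS, 5 ADAMTSL and 6 the inhibitors.

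The array was Affymetrix's whole-transcript design for cattle, and 6 cultures of primary GC were each hybridised to an array of their own. In 3 of the cultures the cells had been seeded at normal density and in the other 3 at high density. Both groups shared the medium, alpha-MEM without serum but with insulin, transferrin, selenite, BSA, FSH, IGF-1 and androstenedione, the collagen coat of the plates and the culture time of 9 days. The cells were pools from many small to medium sized follicles of slaughtered cows whose cycle stage was not defined, and had been frozen before plating. The question was how the initial plating density changes the transcripts of the cultured GC.

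Values are log2 signals, and a difference is the mean of the high density cultures minus that of the normal density cultures. A transcript cluster is termed called when the fold change (FC) was above 1.5 in size and the p-value and the false discovery rate (FDR) were below 0.05 in limma, adjusted over all 26773 transcript clusters. The adjusted p given below is this FDR. Errors of means are SD (n = 3 cultures per density) and errors of differences are standard errors. The background level was a log2 signal of 4.62, the 95th percentile of the 82 reporter control rows, which carry no bovine gene. Where all cultures of the dimmer group were at or below it, the FC is given as "at least" against that level. The number of arrays limits the precision.

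All 15 GC marker genes, among them FSHR, CYP19A1, INHA and FOXL2, had a group mean above background, although 6 of them were called lower at high density. None of 12 leukocyte markers (PTPRC, CD14 and CD68 included) and none of 8 oocyte markers reached the level in either group mean. Of 10 endothelial markers VWF was above it, and PECAM1, CDH5 and KDR were not. Of 6 theca markers INSL3 and PTCH1 were above it, and CYP17A1, ANPEP, HHIP and LHCGR were not. The summed linear signal of all 6 theca markers was between 248 and 268 at normal density and between 590.2 and 700.5 at high density. Most of the rise of this sum was that of 1 marker, INSL3, which was called higher, with means of 7.20 and 9.02. PTCH1 was not called, with means of 6.03 and 6.33, and LHCGR was called lower below background, with means of 4.04 and 2.84. LHCGR is not particular to theca. The paper treats it as a receptor gene of the cultured GC, and its qPCR also gave a fall at high density. CYP17A1 had means of 2.93 and 2.92. The sum of the GC markers was between 11197 and 11960 at normal and between 9611 and 9833 at high density. All 8 fibroblast and stroma markers were above it, and their summed linear signal was between 5472 and 5631 at normal density and between 6151 and 6275 at high density, with COL1A1, PDGFRB and THY1 called higher. The part of these shifts in the results below was not tested. In such bulk samples a change in the number of cells of a type and a change of RNA per cell cannot be told apart. High density replicate 2 was the lowest of its group in 45 of the 69 members and the highest in 14, and values without it are given where they change a call.

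Among the members 11 transcript clusters were called higher at high density and 1 was called lower. Of all transcript clusters on the array 7.49% were called, 3.97% higher and 3.51% lower, against 15.9% higher and 1.45% lower of the members. The called rises were those of the proteoglycan-cleaving protease ADAMTS20, the surface proteases ADAM8 and ADAM12, the matrix proteases ADAMTS12, ADAMTS14 and ADAMTS17, the matrix protein ADAMTSL1 (both of its transcript clusters), the gelatinase MMP9, the epilysin MMP28 and the inhibitor TIMP3. The called fall was that of the other gelatinase, MMP2. The median difference was 0.13 over the members and 0.02 over all transcript clusters. At any FC, 19 members passed the FDR threshold with higher and 3 with lower signals, 22 in all. Of all transcript clusters 19.1% passed it, 2314 with higher and 2792 with lower signals. The 3 high density cultures lay wholly above the normal density cultures in 27 members and wholly below in 5. Of all transcript clusters 17.8% lay wholly above and 19.5% wholly below. In either direction, 46.4% of the members and 37.3% of all transcript clusters did not overlap.

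**Figure D1:**
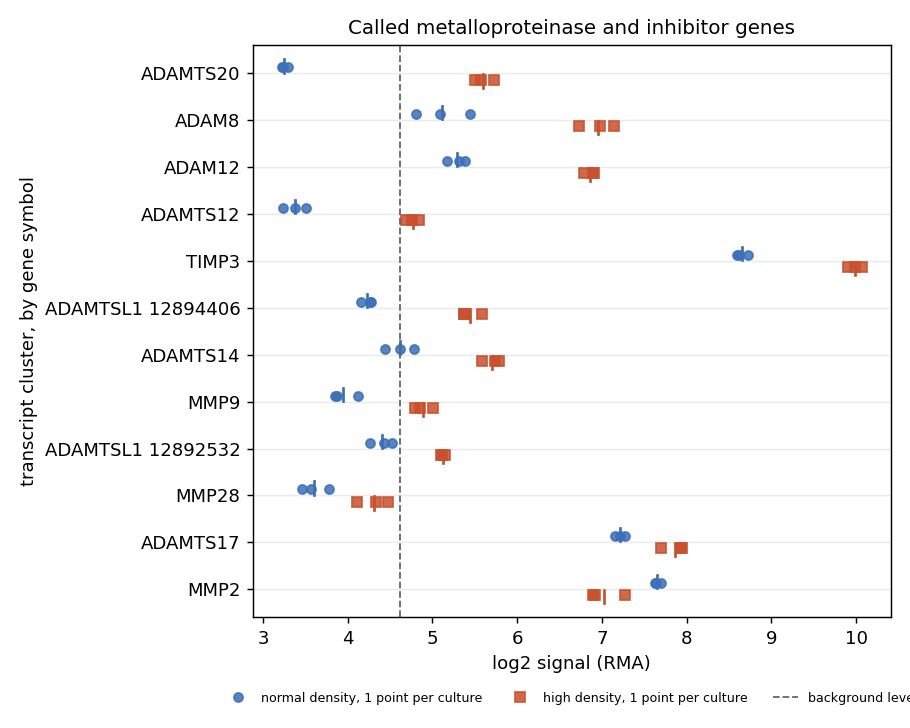
Log2 signals (x axis) of the 12 called transcript clusters (y axis), with 1 point per culture, a short line at the group mean and a dashed line at the background level of 4.62. The high density cultures lie to the right of the normal density cultures in 11 transcript clusters and to the left for MMP2, and ADAMTS20 shows the widest gap, from normal density values below background.

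Levels set a limit on what the array could show. Both group means were above background in 26 members, 11 had a single group mean above it, and in 32 both were at or below it. MMP28 was called among these 32, and the differences of the other 31 were all below the FC threshold in size, between −0.22 and 0.50. This dim set held all 7 ADAM genes of the male germ line and related types (ADAM2, ADAM18, ADAM20, ADAM21, ADAM29, ADAM30 and ADAM32). The 3 ADAM of the neural type without a catalytic site (ADAM11, ADAM22 and ADAM23) were in it too. The spread of the members between cultures, with a median SD of 0.08 at normal and 0.13 at high density, was that of the array as a whole, where it was 0.08 and 0.13.

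The gelatinases MMP2 and MMP9 cleave denatured collagens and the type IV collagen of basement membranes, and at high density their signals went in opposite directions. MMP2 (transcript cluster 12749561) had log2 signals of 7.69, 7.63 and 7.64 in the normal density cultures 1 to 3, and of 6.92, 6.89 and 7.27 in the high density cultures. All high density values were lower, and the third stood nearer to the normal density cultures. The difference was −0.63 (standard error 0.11, adjusted p = 0.00764 by limma), a fall of 1.54-fold. It lay close to the FC threshold, and the call was lost without high density replicate 1, with a difference of −0.57, and without high density replicate 2, with −0.56. It was also lost in the methods' t-test, with array weights and after a second quantile normalization, but the sign stayed negative in all of these.

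MMP9 (12713813) had signals of 3.85, 3.87 and 4.12 at normal density, all below background, and of 5.01, 4.79 and 4.85 at high density, all above it. The groups were well apart. The difference was 0.93 (standard error 0.10, adjusted p = 8.81e-04 by limma), and against the background level the FC was at least 1.20. MMP9 is well known from leukocytes. The summed linear signal of the leukocyte markers was between 111 and 117 at normal density and between 111 and 125 at high density. All 12 of these markers were at or below background, so the sums cannot show whether leukocyte RNA changed. Without overlap, CD14 was higher at high density (means 3.91 and 4.32) and PTPRC was lower (means 2.16 and 1.94). A part of leukocytes in the MMP9 rise was not tested.

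The collagenases, which open the triple helix of fibrillar collagen, were not called. MMP1 has a pair of transcript clusters on the array. The brighter (12726701) had signals of 5.79, 5.59 and 5.84 at normal density and of 6.39, 6.17 and 6.07 at high density, without overlap. Its difference of 0.47 (standard error 0.11, adjusted p = 0.0234 by limma) passed the FDR but not the FC threshold. The other (12726411), annotated by an accession that was not matched to RefSeq and possibly shared with a close relative, had a difference of 0.52 (standard error 0.17, adjusted p = 0.0692 by limma), with a wide spread at normal density from 3.96 to 4.63. Without normal density replicate 2 this difference was 0.66 and was called. MMP8 and MMP13 had means between 1.69 and 1.84 in both groups, far below background.

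In the RefSeq gene table (assembly ARS-UCD2.0) the MMP genes MMP13, MMP12, MMP3 and MMP1 follow each other with no other protein-coding gene between them, and MMP8, MMP27, MMP20 and MMP7 form another such run. These 8 genes, with 9 transcript clusters, held no call, and 7 of the 9 were at or below background in both groups. Above background were the transcript clusters of MMP1, of which the brighter was so at both densities. MMP12, the macrophage elastase, passed the FDR threshold with means of 2.50 and 2.93 and a difference of 0.43 (standard error 0.07, adjusted p = 0.00481 by limma), but these signals are below background and its FC was below the threshold.

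The membrane-type MMP are anchored at the cell surface, and MMP14, which activates the proenzyme of MMP2 in a complex with TIMP2, is the best known of them. MMP14 (12693536) had signals of 8.29, 8.45 and 8.27 at normal density and of 8.41, 8.26 and 8.39 at high density. The groups overlapped fully. Its difference was 0.02, with a 95% confidence interval from −0.18 to 0.21, and turned to −0.03 when the arrays were shifted to the same median.

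MMP15 (12749577) had signals of 7.85, 7.90 and 7.77 at normal density and of 8.40, 8.09 and 8.28 at high density, all higher. Its difference of 0.42 (standard error 0.09, adjusted p = 0.0210 by limma) passed the FDR threshold only. MMP16 (12721755) had a difference of −0.22 (standard error 0.07, adjusted p = 0.0793 by limma), with all high density values, 8.01 to 8.15, below the normal density values, 8.26 to 8.35. Thus the 3 members of this kind with signals above background had a difference near 0, above 0 and below 0, and none was called. MMP17, MMP24 and MMP25 had means at or below background at both densities and differences of 0.34, 0.27 and 0.40, none past the FDR threshold.

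Of the remaining MMP, MMP28, a secreted protease called epilysin, rose from signals of 3.46, 3.78 and 3.57 to 4.33, 4.11 and 4.47. The difference was 0.70 (standard error 0.12, adjusted p = 0.00685 by limma). All 6 values lay below background, so no FC is given, and the methods' t-test did not call it. MMP19, with clear signals, changed from 6.77 ± 0.05 to 7.20 ± 0.10 (SD, n = 3), a difference of 0.43 (standard error 0.08, adjusted p = 0.00859 by limma), below the FC threshold. MMP23B and MMP11 were above background in both groups, with overlapping cultures and differences of −0.03 and 0.05.

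ADAM proteases cut membrane proteins close to the cell surface, and ADAM10 and ADAM17 are the main enzymes for the shedding of Notch receptors, TNF and EGF-like ligands. Of the 9 ADAM sheddases of somatic cells, ADAM8 and ADAM12 were called, both higher. ADAM8 (12819887) had signals of 5.09, 4.81 and 5.45 at normal density and of 7.15, 6.73 and 6.97 at high density. The groups were separated by more than their own ranges, all 6 values were above background, and the difference was 1.83 (standard error 0.17, adjusted p = 5.09e-04 by limma), a rise of 3.56-fold. Its rank among all rises in the table was 100. ADAM8 was first described in leukocytes, whose markers were all below background here, and a part of such cells in this rise was not tested.

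ADAM12, also called meltrin alpha, cleaves IGF binding proteins and HB-EGF. Its transcript cluster 12821567 had signals of 5.17, 5.31 and 5.38 at normal density and of 6.89, 6.78 and 6.91 at high density. The cultures of each density were close together, and the difference was 1.58 (standard error 0.08, adjusted p = 4.07e-05 by limma), a rise of 2.98-fold. Both calls held in every alternative that was run, with no difference below 1.68 for ADAM8 or 1.52 for ADAM12.

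For ADAM10 (12688112) the signals were 9.13, 9.05 and 9.12 at normal density and 8.85, 9.21 and 8.85 at high density. High density replicate 2 was the highest and the others were the lowest of all cultures, and the difference was −0.13, with a 95% confidence interval from −0.38 to 0.13. It was −0.25 without high density replicate 2, −0.067 without replicate 1 and −0.064 without replicate 3, and was called in none of these. ADAM17 (12700297) had signals of 7.88, 8.00 and 7.97 and of 8.12, 8.06 and 8.01. The groups just failed to overlap, and the difference of 0.11 had an interval from −0.05 to 0.28 (adjusted p = 0.319 by limma). These intervals lie inside the FC threshold on both sides.

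ADAM15 passed the FDR threshold in the other direction. It had signals of 6.46, 6.72 and 6.49 at normal density and of 6.26, 5.91 and 6.21 at high density, all lower, with a difference of −0.43 (standard error 0.12, adjusted p = 0.0455 by limma) and an FC below the threshold. ADAM9 and ADAM19 were above background at both densities with differences of −0.07 and 0.15, and ADAM33 was below it. ADAM28 was close to background, with means of 4.79 and 4.65 and a difference of −0.14. Of its high density cultures 1 was above the level. None of these passed the FDR threshold.

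**Figure D2:**
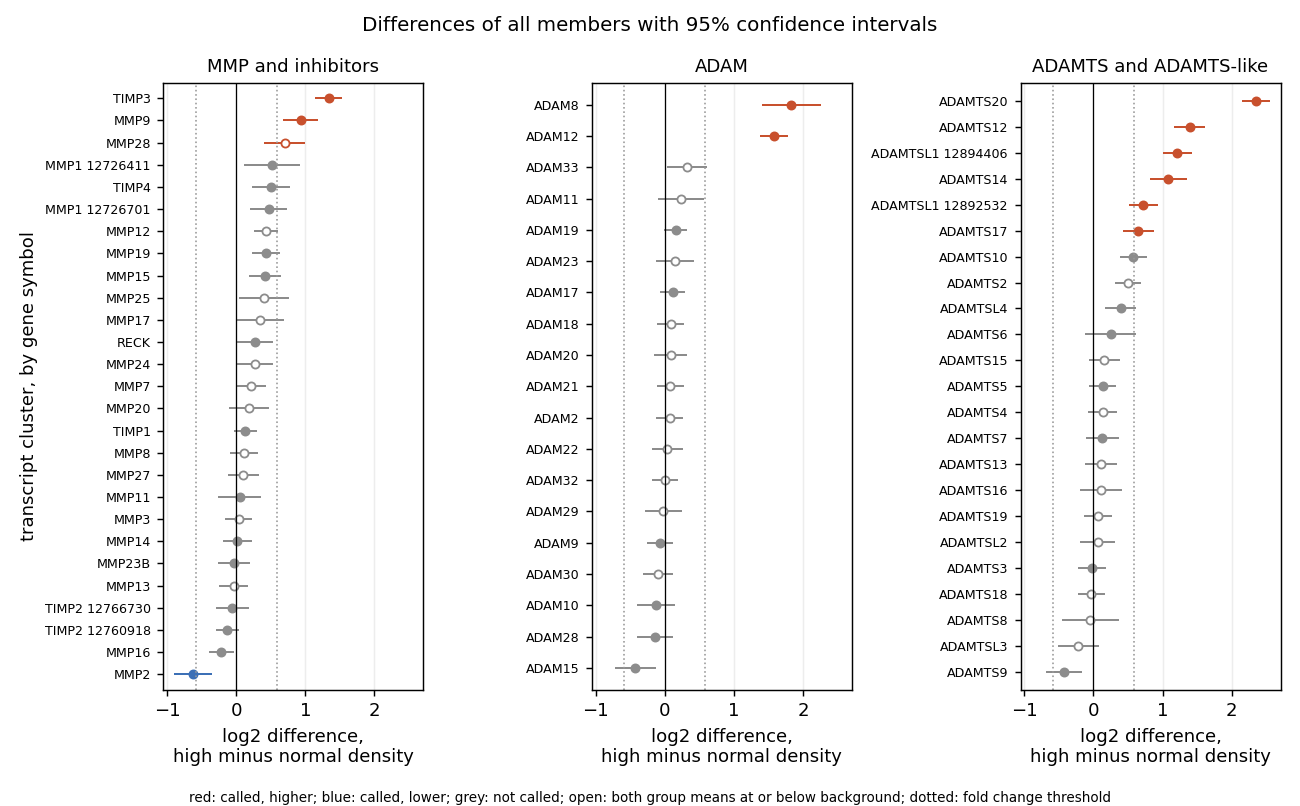
Differences between high and normal density on the log2 scale (x axis) with 95% confidence intervals for all 69 transcript clusters (y axis), by family. Called rises are red, the called fall is blue, open points have both group means at or below background, and dotted lines mark the FC threshold. Most intervals lie near 0, and those of ADAMTS20, ADAM8 and ADAM12 lie farthest to the right.

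The ADAMTS proteases are secreted and bind to matrix. Of the 18 transcript clusters 4 were called, all higher at high density. Among the proteoglycanases, which cleave aggrecan and versican, ADAMTS20 (12861279) had signals of 3.23, 3.29 and 3.23 at normal density and of 5.58, 5.72 and 5.50 at high density. It went from below background in every normal density culture to above it in every high density culture. The difference of 2.35 (standard error 0.08, adjusted p = 1.07e-05 by limma) was the largest measured among the members, but it rests on normal density signals below background. Against the background level the FC was at least 1.97, a bound below the 3.56-fold rise of ADAM8.

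Its nearest relative ADAMTS9, which also cleaves versican, did not share this direction. ADAMTS9 (12796519) had signals of 4.75, 4.94 and 4.85 at normal density and of 4.32, 4.62 and 4.31 at high density. The difference was −0.43 (standard error 0.10, adjusted p = 0.0281 by limma), with an FC of at least 1.17 against background and below the threshold as measured. ADAMTS5, with signals of 4.90 ± 0.06 and 5.03 ± 0.10 (SD, n = 3), had overlapping cultures. ADAMTS4, ADAMTS8 and ADAMTS15 were below background at both densities, with differences between −0.05 and 0.16.

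The procollagen N-proteinases ADAMTS2, ADAMTS3 and ADAMTS14 remove the amino-terminal propeptide of fibrillar procollagens. ADAMTS14 (12826139) had signals of 4.79, 4.62 and 4.44 at normal density, around the background level, and of 5.73, 5.58 and 5.78 at high density. The difference was 1.08 (standard error 0.11, adjusted p = 5.71e-04 by limma), a rise of 2.12-fold. ADAMTS3, the brightest signal of the 3, had means of 7.47 (SD 0.01) at normal density and 7.44 (SD 0.12) at high density, and its interval from −0.21 to 0.16 lies inside the FC threshold. ADAMTS2 had a difference of 0.50 (standard error 0.08, adjusted p = 0.00403 by limma) with both means below background, 3.87 and 4.37, and its FC was below the threshold.

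Of the other ADAMTS, ADAMTS12 (12785865), which cleaves the cartilage matrix protein COMP, had signals of 3.51, 3.38 and 3.24 at normal density and of 4.84, 4.69 and 4.76 at high density. The high density values were just above background, so that the difference of 1.39 (standard error 0.09, adjusted p = 1.01e-04 by limma) corresponds to an FC of at least 1.11. ADAMTS7, the other COMP-cleaving member, had overlapping cultures with means of 5.28 and 5.41.

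ADAMTS10 and ADAMTS17 are linked to the fibrillin microfibrils of the matrix. ADAMTS17 (12790853) had signals of 7.27, 7.21 and 7.16 at normal density and of 7.93, 7.70 and 7.95 at high density. The difference was 0.65 (standard error 0.09, adjusted p = 0.00254 by limma), a rise of 1.57-fold. ADAMTS10 (12885242) had signals of 4.41, 4.40 and 4.35, below background, and of 5.01, 4.84 and 5.03. Its measured difference of 0.58 (standard error 0.08, adjusted p = 0.00219 by limma) was just below the FC threshold, and the FC was at least 1.27 against background. It was called without high density replicate 2, without normal density replicate 1 and with array weights, with differences of 0.64, 0.59 and 0.62. ADAMTS17 and MMP2, with measured differences of 0.65 and −0.63, were the calls nearest to the threshold, and ADAMTS10 and TIMP4, with 0.58 and 0.50, lay next below it among members that passed the FDR threshold. The other members of this kind (ADAMTS6, ADAMTS13, ADAMTS16, ADAMTS18 and ADAMTS19) had overlapping cultures, with differences between −0.03 and 0.25. ADAMTS6 lay around the background level, with means of 4.59 and 4.84, and the others were below it in every culture.

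ADAMTSL1, also known as punctin, is a matrix protein without protease activity and was measured by 2 transcript clusters that rose together. The cluster 12894406 had signals of 4.27, 4.26 and 4.16 at normal density and of 5.38, 5.37 and 5.58 at high density, a difference of 1.21 (standard error 0.08, adjusted p = 1.30e-04 by limma). The cluster 12892532 had signals of 4.42, 4.52 and 4.27 and of 5.11, 5.15 and 5.10, a difference of 0.72 (standard error 0.08, adjusted p = 0.00115 by limma). In both, every normal density value was below background and every high density value above it, and the FC were at least 1.77 and at least 1.42. ADAMTSL4, which binds fibrillin, had signals of 4.80, 4.82 and 4.70 and of 5.31, 5.03 and 5.16, with a difference of 0.39 (standard error 0.09, adjusted p = 0.0224 by limma) below the FC threshold. ADAMTSL2 and ADAMTSL3 were below background.

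Among the inhibitors TIMP3 was called. TIMP3 stays bound to the extracellular matrix and inhibits ADAM17 and ADAMTS proteases as well as MMP. Its transcript cluster 12857108 had signals of 8.59, 8.73 and 8.62 at normal density and of 10.06, 9.90 and 9.99 at high density. The groups were far apart and well above background, and the difference was 1.34 (standard error 0.08, adjusted p = 5.81e-05 by limma), a rise of 2.53-fold that lay between 1.29 and 1.38 on the log2 scale in all alternatives.

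TIMP1 and TIMP2, soluble inhibitors of most MMP, had high signals that moved little. TIMP1 (12902909) had signals of 11.46, 11.47 and 11.45 at normal density and of 11.61, 11.55 and 11.63 at high density. The groups did not overlap, but the difference was 0.13, with a 95% confidence interval from −0.02 to 0.28. TIMP2 (12760918) had signals of 10.96, 10.98 and 10.96 and of 10.86, 10.77 and 10.89, all lower, with a difference of −0.13 and an interval from −0.29 to 0.03. Neither passed the FDR threshold (adjusted p = 0.208 and 0.231 by limma), and both intervals exclude an FC of 1.5. TIMP1 did pass it in the methods' t-test (adjusted p = 0.0463). It also passed in limma with a variance trend and a robust prior (adjusted p = 0.0282), and the difference was 0.13 in both. The other TIMP2 transcript cluster (12766730) was dimmer, with overlapping cultures between 5.15 and 5.42 and a difference of −0.06.

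TIMP4 (12794425) had signals of 4.41, 4.68 and 4.59 at normal density and of 5.06, 4.89 and 5.25 at high density, all higher. The difference was 0.50 (standard error 0.11, adjusted p = 0.0210 by limma), below the FC threshold. It was 0.59 without high density replicate 2 and 0.60 with array weights, and was then called. RECK (12890470) had signals between 5.73 and 5.90 at normal density and between 5.97 and 6.30 at high density, without overlap, with a difference of 0.27 (standard error 0.11, adjusted p = 0.130 by limma). Without high density replicate 2 it was 0.16.

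**Figure D3:**
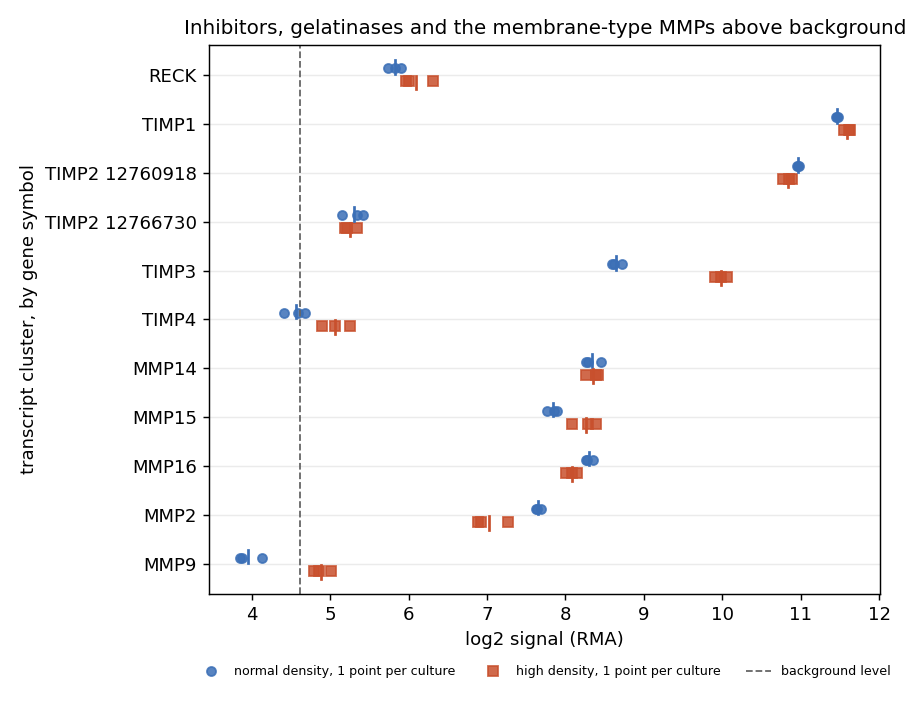
Log2 signals (x axis) of the inhibitors, both gelatinases and the membrane-type MMP with signals above background (y axis), with 1 point per culture, a short line at the group mean and a dashed line at the background level. TIMP3 is the inhibitor with the wide gap between densities, and MMP2 and MMP9 are shifted in opposite directions. The points of TIMP1 and of the brighter TIMP2 transcript cluster lie close together at the right. Those of the dimmer TIMP2 transcript cluster lie farther left, nearer to the background level.

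Genes that process, escort, bind or inhibit these proteases, or are their relatives outside the symbols above, formed a list of 44 linked genes. In all, 41 of the 44 were measured. Of these, 8 (19.5%) were called higher and 1 (2.44%) lower, where 3.97% and 3.51% of all transcript clusters were, and their median difference was 0.09, beside 0.02 over all transcript clusters. The list was chosen with earlier results of these data known, so its shares are descriptions and were not tested. Its groups are small, and their counts below are descriptions too. Of the 9 partners of ADAM10 and ADAM17, 1 was called in each direction. RHBDF2 (iRhom2), which carries ADAM17 through its maturation, had signals of 5.97, 6.02 and 5.85 at normal density and of 7.33, 6.83 and 7.27 at high density. The difference was 1.20 (standard error 0.14, adjusted p = 0.00111 by limma). TSPAN15, a tetraspanin that escorts ADAM10, fell from 5.31, 5.43 and 5.41 to 3.74, 4.30 and 4.21, below background in all high density cultures. Its difference was −1.30 (standard error 0.14, adjusted p = 9.68e-04 by limma), an FC of at least 1.70. Its relatives TSPAN5, TSPAN14, TSPAN17 and TSPAN33, also ADAM10 partners, had overlapping cultures, as did RHBDF1 and FRMD8.

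Surface molecules that bind proteases or are shed by them were called in 3 of 6 cases. The syndecan SDC1 rose from 5.79 ± 0.14 to 7.56 ± 0.15 (SD, n = 3), a difference of 1.77, and SDC4 from 9.17 ± 0.08 to 10.30 ± 0.08, a difference of 1.13. The hyaluronan receptor CD44, a docking site of MMP9, rose from 5.98 ± 0.08 to 7.27 ± 0.13, a difference of 1.29. BSG (basigin, an inducer of MMP), CAV1 and CD151 were not called, with differences of 0.08, −0.11 and −0.12.

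Of the 8 measured further inhibitors and enhancers 2 were called. A2M, the plasma protein that traps proteases of all classes, had a difference of 0.66 (standard error 0.08, adjusted p = 0.00184 by limma), and it was 0.58 and not called without normal density replicate 3. The proteoglycan SPOCK2 (testican-2) rose from 6.95 ± 0.18 to 8.33 ± 0.15 (SD, n = 3), a difference of 1.38. The group of related metalloproteinases had 11 measured genes, among them THSD4, an ADAMTS-like gene without a protease. In this group 2 genes were called. PAPPA, which cleaves IGF binding proteins in the follicle, rose from 5.77 ± 0.11 to 6.91 ± 0.06 and the tolloid-like TLL2 from 7.03 ± 0.20 to 7.95 ± 0.09. BMP1, the procollagen C-proteinase of the same family as TLL2, had a difference of −0.18 (adjusted p = 0.190 by limma). The 4 proprotein convertases that activate many of these enzymes (FURIN, PCSK5, PCSK6 and PCSK7) were not called, with differences between −0.17 and 0.30. Nor were the 3 clearance receptors (LRP1, LRP2 and SCARA5). PCSK6, LRP2 and SCARA5 were below background in every culture, so their values cannot show whether these genes changed. Of the 41 measured linked genes, 14 had both group means at or below background.

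**Figure D4:**
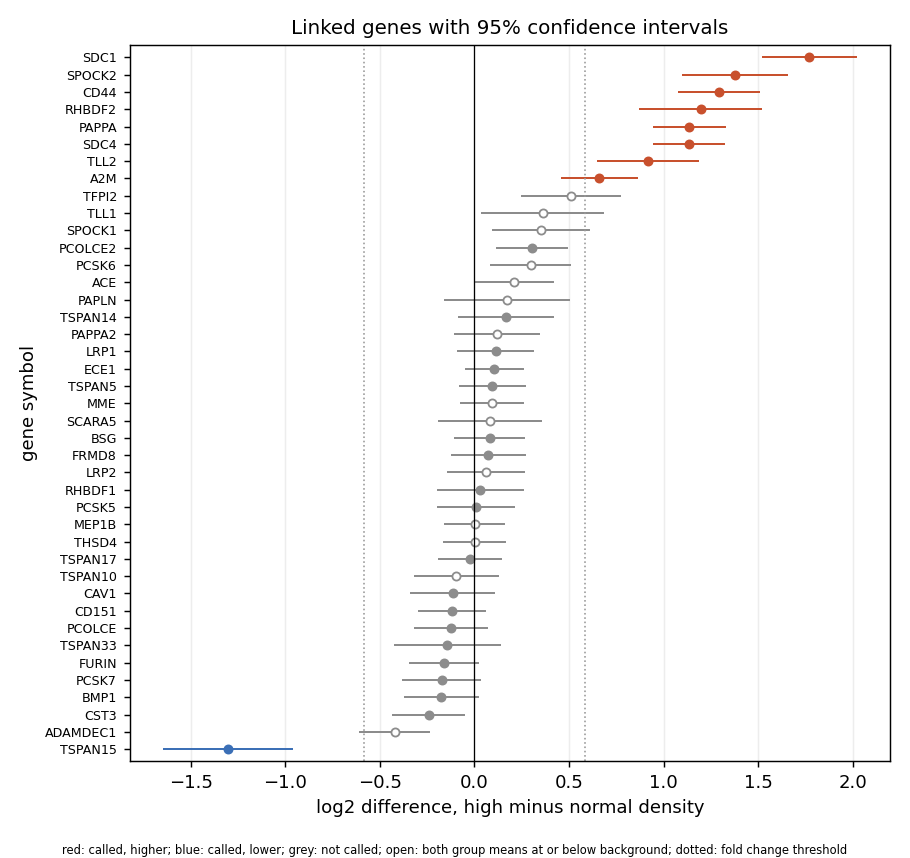
Differences between high and normal density on the log2 scale (x axis) with 95% confidence intervals for the 41 measured linked genes (y axis). Called rises are red, the called fall of TSPAN15 is blue, open points have both group means at or below background, and dotted lines mark the FC threshold.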

How the data were processed

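RNA of 6 bovine GC cultures, 3 per density, was measured on 1 array each. The authors processed the scans in Expression Console with the RMA procedure (background reduction, normalization and gene-level summary), and deposited a table of log2 signals. It had 26773 transcript clusters, control rows included, in rows, the 6 cultures in columns and 0 columns of other samples. RMA compresses differences near background. The genome build behind the array annotation is not given in the sources used here, so the RefSeq table (ARS-UCD2.0) served for names and gene order alone, and no sequences are printed. Symbols were stripped of spaces. Of the 66 member symbols 64 were found in the RefSeq table.

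The test was that of limma 3.58.1 (R 4.3.3), a linear model of density alone whose gene variances were moderated towards 1 prior, followed by Benjamini-Hochberg adjustment across the table. The thresholds were those of the methods. Figures were drawn with matplotlib 3.10.9. The replicates came from separate cell preparations, so p-values measure the spread between these. Named are all called members, the inhibitors, gelatinases, collagenases and membrane-type MMP, ADAM10, ADAM17 and the members beside the FC threshold. Other members named with values (such as MMP12, MMP19, ADAM15, ADAMTS2, ADAMTS3, ADAMTS9 and ADAMTSL4) and linked genes not called were chosen after their values were seen. The members and lists were chosen with earlier results of these data known. The alternatives were the methods' t-test (a one-way analysis of variance), a variance trend with a robust prior, weights for the arrays, a replicate block, a further quantile normalization, centring on array medians, a filter at the background level, 1 row per symbol and leaving out each culture. The script was tested on simulated data.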

Additional observations from a re-analysis of the deposited data

How the results depend on the processing

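Of the 12 called members, 10 stayed called under each of the 14 alternatives that tested them, and MMP2 and MMP28 were the exceptions. The count of members called higher lay between 10 and 13 in all alternatives, and from 11 to 13 when single cultures were left out. The count called lower (MMP2) was 0 instead of 1 in the methods' t-test, with array weights and after a second quantile normalization, and ranged from 0 to 1 when single cultures were left out, being 0 without high density replicate 1 or 2. For MMP2 the difference was −0.63 in the t-test, −0.53 with array weights and −0.58 after quantile normalization. The median difference of the members was 0.25 with the filter at the background level, where 37 members were left, and that filter favours genes high in at least 1 group. With each culture left out it was between 0.12 and 0.16, and after median centring 0.09.

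Of the transcript clusters picked by the naming rule, whose values were recomputed under each alternative, 2 near 0 changed sign. The signs of the other members were not followed. MMP14 was at −0.027 after median centring and from −0.018 to 0.072 when single cultures were left out, where TIMP2 (12766730) ranged from −0.13 to 0.0029. The linked genes gave 8 calls higher and 1 lower, and 7 to 8 higher when single cultures were left out.

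With the replicate number as a block the counts were 11 higher and 1 lower, as without it. The labels give no shared origin for cultures of one number, and the deviations of same-numbered cultures from their group means correlated at 0.046, −0.046 and −0.041, so the numbers were not taken as pairs. Signals near background limit the FC of 11 members with a single group mean above it.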
